A study of Mus musculus with 10 samples.

Results

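The 6 genes described here encode the ligands and receptors of a pair of endothelial signalling systems: Angpt1 and Angpt2 with the receptors Tek and Tie1, and Apln with its receptor Aplnr. They were found in the deposited gene table by their gene names, 6 of 54532 genes listed, and all 6 exceeded the filter on low values that left 20448 genes to be tested. Lung mRNA was compared between 5 WT mice samples with increased pulmonary flow (IPF) and 5 WT sham samples, all collected at postnatal day 30 (P30). The IPF group had an aortocaval fistula made at postnatal day 7, a puncture from the abdominal aorta into the inferior vena cava that returns more blood to the right heart and the lung. The sham group had the laparotomy without the puncture. The mice were of the C57BL/6J strain, and whole lung was used, so that RNA of all its cell types was measured together. The question put to these genes was whether their levels differed in lungs exposed to high flow from the first weeks of life.

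Angiopoietins are secreted proteins that bind Tek (also called Tie2), a receptor tyrosine kinase of endothelial cells. Angpt1, made mostly by pericytes, smooth muscle cells and other mesenchymal cells, activates Tek and keeps vessels quiescent and tight. Angpt2 is made by endothelial cells themselves, is stored and released on activation, and acts as a weak or context-dependent agonist that can oppose Angpt1. Tie1 is a related receptor that pairs with Tek and modulates its signal. Apelin, the peptide encoded by Apln, activates the G protein-coupled receptor Aplnr. In the adult mouse lung Apln marks the large capillary endothelial cells called aerocytes, and Aplnr marks the general capillary cells.

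Between 15483046 and 19026843 reads fell on genes in each sample, and the 6 genes had from 246 reads (the lowest Angpt2 value) to 12016 reads (the highest Tek value). FPKM (fragments per kilobase of gene, scaled to the sequencing depth of the library) accounts for gene length, so levels of different genes can be compared. The groups differed in more than the operation. Xist, expressed from the inactive X chromosome of females, was at 26.8 to 43.2 FPKM in the IPF samples and at 0.0301 to 0.0767 FPKM in the sham samples, and the Y-linked Ddx3y was listed at 0 in all 5 IPF samples. The clock gene Arntl was at 3.31 to 6.85 FPKM in the IPF and 0.311 to 0.452 FPKM in the sham samples, and Dbp at 1.74 to 3.49 against 23.2 to 29.3 FPKM. Of 12 clock genes tested, 3 passed as higher and 8 as lower. Sex and the phase of the clock therefore divided the samples exactly as the operation did, and their parts in any difference below cannot be told apart. Across all genes tested, sham replicate 1 was the least like the others (mean Spearman correlation 0.957, against 0.963 to 0.968 for the other samples), and values without it are given where they matter.

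All 6 genes had a positive log2 fold change, IPF against sham, and 3 of the 6, Angpt2, Aplnr and Angpt1, passed the test at an adjusted p under 0.05 (limma on log2(FPKM + 0.1), Benjamini-Hochberg over all 20448 genes). Among all genes tested, 5.85% passed in either direction, 3.71% higher and 2.14% lower in the IPF group. Angpt2 alone also had a log2 fold change above 1, the limit the study used for its differentially expressed genes, which with the adjusted p was met by 1.14% of genes. In 4 of the 6 genes (the same 3 and Tek) every IPF sample lay above every sham sample, which was so for 4.52% of all genes tested. The median log2 fold change was 0.33 over the 6 genes and 0.00 over all genes tested.

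**Figure D1:**
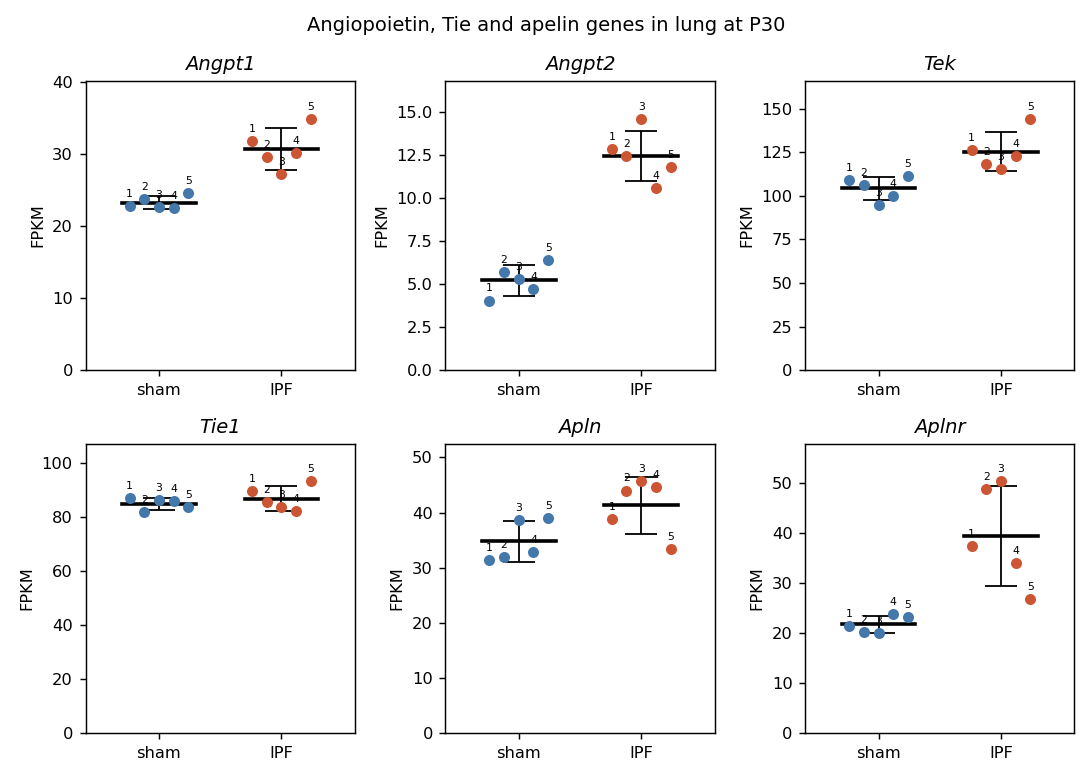
FPKM of each of the 6 genes in the 5 sham (blue) and 5 IPF (orange) samples; small numbers are replicate numbers, the wide line is the mean and the error bar the SD. The groups are separate for Angpt1, Angpt2, Tek and Aplnr and overlap for Tie1 and Apln; the vertical axes start at 0 and differ between panels.

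Angpt2 (ENSMUSG00000031465, chromosome 8 of GRCm38, 18690263 to 18741562, minus strand) had the largest change. Its levels were 12.8, 12.4, 14.6, 10.6 and 11.8 FPKM in IPF replicates 1 to 5. In sham replicates 1 to 5 they were 4.04, 5.68, 5.28, 4.70 and 6.40 FPKM. The lowest IPF sample was thus well above the highest sham sample. The means were 12.4 ± 1.48 FPKM in the IPF and 5.22 ± 0.902 FPKM in the sham group (SD, n = 5 each). On the log2 scale the fold change was 1.24 (standard error 0.12, limma adjusted p = 0.000338), or 2.37-fold with a 95% interval of 1.97 to 2.85. It ranked 32 of the 20448 genes by adjusted p. Without sham replicate 1 its log2 fold change was 1.16 (limma adjusted p = 0.000491), the lowest among the fits that left out 1 sample. Angpt2 lies within Mcph1, a gene on the opposite strand. How strand was treated in counting is not given in the sources used here, so reads of the 2 genes may have been mixed. Mcph1 was at 0.930 ± 0.0972 FPKM in the IPF and 0.802 ± 0.0960 FPKM in the sham group (SD, n = 5 each), for which limma gave a log2 fold change of 0.19 (adjusted p = 0.467).

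Angpt1 (ENSMUSG00000022309, chromosome 15, 42424723 to 42676977, minus strand), the agonist of Tek, was also higher in the IPF group, by a smaller amount. The IPF replicates 1 to 5 held 31.9, 29.5, 27.2, 30.2 and 34.9 FPKM. The sham replicates held 22.8, 23.8, 22.7, 22.5 and 24.6 FPKM. The sham samples lay within a narrow band (SD 0.867 FPKM, n = 5), and the lowest IPF sample, replicate 3, was above that band. The log2 fold change was 0.40 (standard error 0.07, limma adjusted p = 0.00624), a 1.32-fold difference with a 95% interval of 1.19 to 1.46. The antisense gene Gm17473 overlaps the 5′ end of Angpt1 and was at 0.251 ± 0.0502 FPKM in the IPF and 0.263 ± 0.0569 FPKM in the sham group (SD, n = 5 each).

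Of the 2 receptors, Tek (ENSMUSG00000006386, chromosome 4, 94739289 to 94874976, plus strand) was the most abundant of the 6 genes. It was at 126, 118, 116, 123 and 144 FPKM in IPF replicates 1 to 5 and at 109, 106, 94.9, 99.9 and 111 FPKM in sham replicates 1 to 5. The groups did not overlap (two-sided exact permutation p = 0.00794, the smallest that 5 against 5 allow), but the gap between the lowest IPF and the highest sham sample was small. In the fit over all genes Tek did not pass, with a log2 fold change of 0.26 (standard error 0.07, limma adjusted p = 0.0636) and a 95% interval of 1.07 to 1.34-fold. The call depended on the setting: Tek passed in 4 of 21 alternatives, over which the limma adjusted p ranged from 0.0286 to 0.244.

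Tie1 (ENSMUSG00000033191, chromosome 4, 118471191 to 118490061, minus strand) showed no detectable difference. Its levels in IPF replicates 1 to 5 were 89.6, 85.5, 83.4, 82.0 and 93.0 FPKM. In sham replicates 1 to 5 they were 87.0, 81.6, 86.2, 85.7 and 83.6 FPKM. The ranges overlapped widely, and the sham samples spread by only 2.58% of their mean. Limma gave a log2 fold change of 0.03 (adjusted p = 0.804), and its 95% interval reached from 0.943 to 1.11-fold, so a change of the size of that of Angpt1 lay outside the interval. With quantile normalization the sign of this small value turned to -0.02.

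Apln (ENSMUSG00000037010, chromosome X, 48025146 to 48034853, minus strand) encodes the precursor of apelin. It was at 38.9, 44.0, 45.7, 44.6 and 33.4 FPKM in IPF replicates 1 to 5. Sham replicates 1 to 5 had 31.3, 31.9, 38.6, 32.9 and 39.1 FPKM. IPF replicates 2, 3 and 4 were above all sham samples, IPF replicate 1 lay within the sham range and IPF replicate 5 did too. The log2 fold change of 0.25 (standard error 0.10) did not pass (limma adjusted p = 0.196), nor did Apln alone by exact permutation (p = 0.0556, two-sided). IPF replicate 5 decided this: Apln passed when that sample was dropped (0.32, limma adjusted p = 0.0471) and in no other of 20 alternatives. Apln is X-linked, and the groups differ in the number of X chromosomes by the Xist and Y-linked values above. Of the 647 X-linked genes tested, 6.18% passed.

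Aplnr (ENSMUSG00000044338, chromosome 2, 85136225 to 85139923, plus strand), the apelin receptor, rose in the IPF group. Its levels were 37.4, 48.9, 50.4, 34.0 and 26.8 FPKM in IPF replicates 1 to 5. The sham replicates had 21.4, 20.2, 20.0, 23.8 and 23.3 FPKM. The sham samples were close together, and the IPF samples spread widely (coefficient of variation 25.4%, against 8.08% in the sham group), with replicate 5 the lowest and just above the sham samples. The log2 fold change was 0.82 (standard error 0.15, limma adjusted p = 0.0103), or 1.77-fold with a 95% interval of 1.40 to 2.24. Dropping IPF replicate 3 gave the lowest value, 0.73, and dropping IPF replicate 5 the highest, 0.95, among the fits that left out 1 sample, and Aplnr passed in all 21 alternatives.

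By level, the order in the sham group was Tek, Tie1, Apln, Angpt1, Aplnr and Angpt2, from 104 to 5.22 FPKM on average. Neighbours in this order had separate ranges except Angpt1 and Aplnr, at 23.3 and 21.7 FPKM, whose ranges overlapped. In the IPF group Aplnr, at 39.5 FPKM, came before Angpt1, at 30.7 FPKM, and next to Apln, at 41.3 FPKM. The ranges of these 3 genes overlapped there, while Tek, Tie1 and Angpt2 (125, 86.7 and 12.4 FPKM) each stood apart from their neighbours.

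Ratios of genes that act on each other were formed within each lung, where the scaling between libraries cancels. Angpt2 was 0.404, 0.422, 0.538, 0.352 and 0.339 of Angpt1 in IPF replicates 1 to 5. In sham replicates 1 to 5 it was 0.181, 0.242, 0.236, 0.212 and 0.263 of Angpt1. The transcript ratio was thus higher in every IPF lung than in every sham lung, although Angpt1 stayed the more abundant transcript in all 10 samples. The proteins were not measured. The log2 ratio differed by 0.85, or 1.80-fold (two-sided exact permutation p = 0.00794), and by 0.77 without sham replicate 1. Tek to Tie1 was 1.38 to 1.55 in the IPF group and 1.10 to 1.33 in the sham group, a difference of 0.23 on the log2 scale with no overlap (two-sided exact permutation p = 0.00794). Apln to Aplnr went the other way: the ratio was 0.900 to 1.31 in the IPF and 1.38 to 1.93 in the sham group, 0.669 of the sham value on average (two-sided exact permutation p = 0.00794). These 3 ratios belong to a family of 9 values, with the 6 genes relative to endothelial genes, and the endothelial mean and the level of each of the 6 genes were tested in the same way besides. Their p-values are not adjusted, and 0.00794 is the smallest the design allows.

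**Figure D2:**
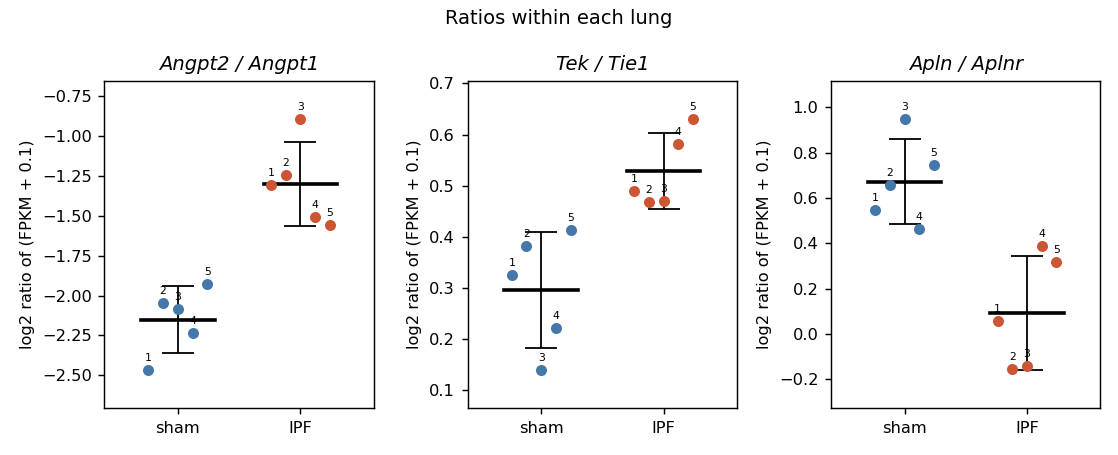
Log2 ratio within each lung of Angpt2 to Angpt1, Tek to Tie1 and Apln to Aplnr, from FPKM + 0.1; points are samples with replicate numbers, the wide line is the mean and the error bar the SD (n = 5 each). For Angpt2 to Angpt1 and Tek to Tie1 the lowest IPF point lies above the highest sham point, and for Apln to Aplnr the order is the reverse; the axes do not start at 0.

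The 5 genes other than Angpt1 are expressed mainly by endothelial cells, so the share of endothelial RNA in each lung bears on their values. The mean of 14 pan-endothelial genes on the log2(FPKM + 0.1) scale was 6.10 ± 0.08 in the IPF and 5.97 ± 0.05 in the sham group (SD, n = 5 each), a 1.10-fold difference without overlap (two-sided exact permutation p = 0.00794). The summed level of these genes was 1626 to 1879 FPKM in the IPF and 1462 to 1581 FPKM in the sham samples. Cldn5, the most abundant of them, made up a mean of 451 FPKM of this sum in the IPF and 309 FPKM in the sham group. Neither the sum nor the mean was computed without Cldn5. None of the 14 was listed at 0, 12 had a positive and 2 a negative log2 fold change, and 2 passed the test, Cldn5 (0.56, limma adjusted p = 0.0107) and Tal1 (0.28, limma adjusted p = 0.0430). Among all genes tested, 3.71% passed as higher. Cldn5 passed in all 21 alternatives, and Tal1 in 7 of 21, losing the call in 8 of 10 fits that left out 1 sample (limma adjusted p up to 0.110). Defining genes such as Pecam1 (log2 fold change -0.05, limma adjusted p = 0.753) and Cdh5 (0.12, limma adjusted p = 0.486) did not pass. In whole lung, more cells of a type and more RNA per cell cannot be told apart.

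Set against this endothelial mean, Angpt2 was 2.15-fold higher in the IPF group and Angpt1 1.20-fold higher, each with no overlap of the groups (two-sided exact permutation p = 0.00794). Angpt1 is made mostly by mesenchymal cells, so for it this mean does not account for the share of its source cells. Angpt1 was not set against pericyte or fibroblast genes. Aplnr was 1.61-fold higher (two-sided exact permutation p = 0.0238), with 4 of 5 IPF lungs above the sham range, and IPF replicate 5, at -1.47 on the log2 scale, inside the sham range of -1.69 to -1.38. Tek was 1.09-fold higher, with 1 of 5 IPF lungs above the sham range (two-sided exact permutation p = 0.119). Tie1 was 0.928 of the sham value (two-sided exact permutation p = 0.0238), with 3 of 5 IPF lungs below the sham range. Apln differed by 1.08-fold (two-sided exact permutation p = 0.444), a log2 difference of 0.11 that was 0.21 without IPF replicate 5. It was 0.05 without IPF replicate 3, 0.06 without IPF replicate 2 and 0.07 without sham replicate 2, and passed in none of these.

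**Figure D3:**
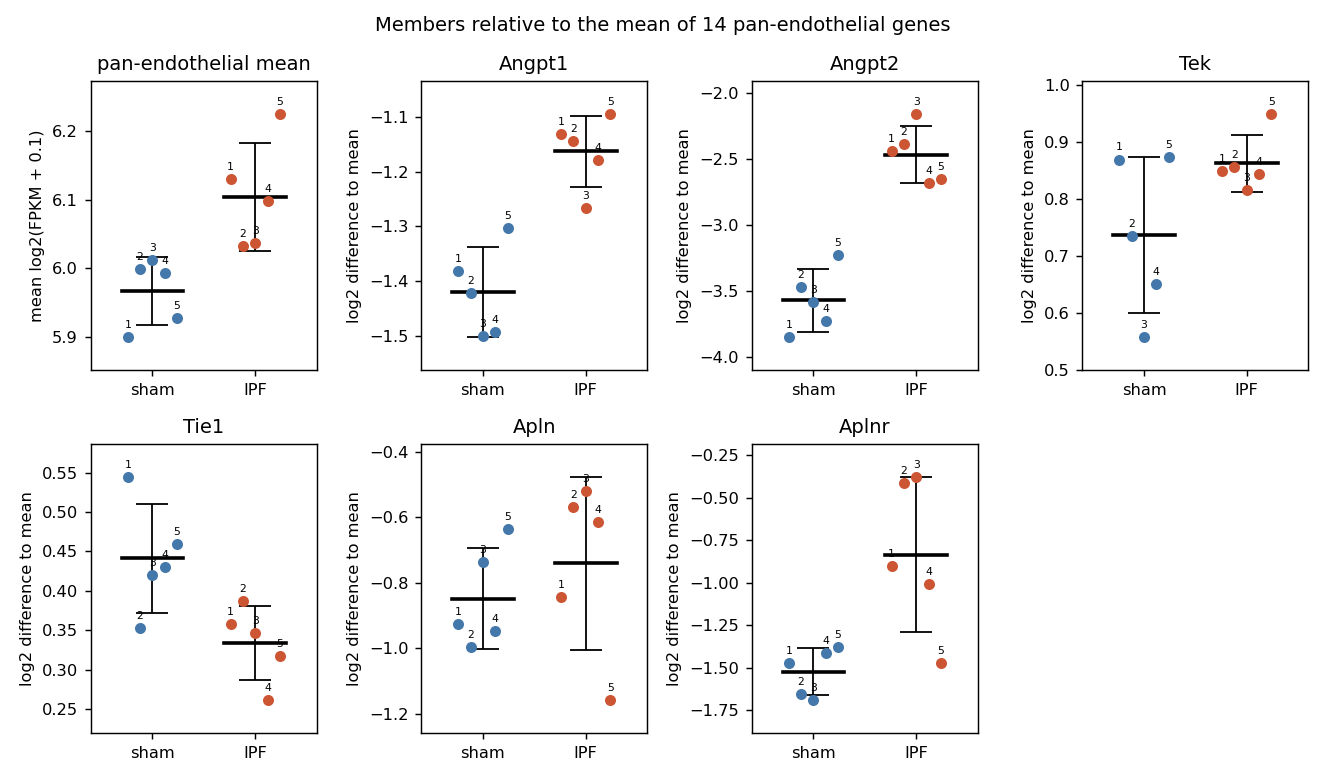
The mean log2(FPKM + 0.1) of 14 pan-endothelial genes by sample (top left) and the log2 difference of each of the 6 genes from that mean; points are samples with replicate numbers, the wide line is the mean and the error bar the SD (n = 5 each). Angpt1 and Angpt2 stay separate between groups after this step, Aplnr does so except for IPF replicate 5, and Tek no longer does. For Angpt1, which is not mainly endothelial, the step does not account for its source cells. The axes do not start at 0.

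Markers of the cells that make or receive these signals were followed on lists of their own, whose counts stand beside 3.71% of all genes tested that passed as higher and 2.14% that passed as lower. Of 8 general capillary genes, the cells marked by Aplnr, none passed (3 positive and 5 negative, summed level 815 to 1022 FPKM in the IPF and 845 to 902 FPKM in the sham samples). Of 9 aerocyte genes, 2 passed, both higher: Chst1 (0.38, limma adjusted p = 0.00833) and Rprml (0.99, limma adjusted p = 0.0193), while the defining gene Car4 did not (0.18, limma adjusted p = 0.269). Rprml lost the call without IPF replicate 2 or without IPF replicate 4 (limma adjusted p up to 0.0535). Of the 9, 6 had a positive and 3 a negative log2 fold change. The summed aerocyte level was 577 to 747 FPKM in the IPF and 601 to 687 FPKM in the sham samples. Of 10 pericyte genes, a source of Angpt1, 1 passed and was lower, Cspg4 (-0.43, limma adjusted p = 0.0173), and Pdgfrb did not (0.19, limma adjusted p = 0.286). Of the 10, 7 had a positive and 3 a negative log2 fold change, with summed levels of 328 to 427 FPKM in the IPF and 330 to 361 FPKM in the sham samples. Of 10 alveolar fibroblast genes 2 passed, Pdgfra (0.35) and Wnt2 (0.65), both higher, while 6 of the 10 had a negative log2 fold change. Wnt2 passed in all 21 alternatives, and Pdgfra in 18 of 21, losing the call without IPF replicate 4, without sham replicate 2 and with quantile normalization (limma adjusted p up to 0.0599). Of 8 megakaryocyte and platelet genes, another source of Angpt1, none passed, at 27.3 to 38.8 FPKM summed in the IPF and 21.8 to 34.2 FPKM in the sham samples. Among 8 smooth muscle genes, Smtn passed and was lower (-0.26, limma adjusted p = 0.0495), but in only 7 of 21 alternatives (adjusted p up to 0.123), and 6 of the 8 had a negative log2 fold change. Across lymphatic endothelial, alveolar type 1 and type 2, ciliated airway, atrial muscle, adipocyte and thymocyte genes, none passed. Only 2 of 6 thymocyte, 4 of 6 adipocyte and 6 of 7 atrial muscle genes could be tested. All 7 ciliated airway genes had a negative log2 fold change. Of the adipocyte genes tested, 3 had a positive and 1 a negative log2 fold change, with a median of 1.06. The part of cell composition in the differences of the 6 genes was not tested beyond the comparison with the endothelial mean.

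Of 23 other genes of the angiopoietin-Tie pathway tested, 3 passed, all higher in the IPF group (3.71% of all genes tested passed as higher), with a median log2 fold change of -0.01. Svep1, an extracellular matrix protein that binds Tie1, was at 9.17 ± 1.02 FPKM in the IPF and 6.71 ± 0.546 FPKM in the sham group (SD, n = 5 each), and limma gave it a log2 fold change of 0.44 (adjusted p = 0.0137), and all 5 IPF samples were above all sham samples. Cldn5, a tight junction protein that strengthens the endothelial barrier, had 432 to 481 FPKM in the IPF and 238 to 340 FPKM in the sham samples, and it is also on the pan-endothelial list. Grb14, an adaptor that binds receptor tyrosine kinases, was at 7.66 ± 1.23 against 5.47 ± 0.531 FPKM (SD, n = 5 each), a log2 difference of 0.47 (limma adjusted p = 0.0388). Grb14 passed in 9 of 21 alternatives (limma adjusted p up to 0.0969) and lost the call in 9 of 10 fits that left out 1 sample. Ptprb, the phosphatase that removes phosphate from Tek, was at 0.14 (limma adjusted p = 0.509). The transcription factor Foxo1, which Tek signalling restrains and which drives Angpt2 transcription, was at -0.11 (limma adjusted p = 0.563). Foxo3 was at -0.57 (limma adjusted p = 0.0809) and passed in 3 of 21 alternatives, array weights, voom and the fit without IPF replicate 5 (-0.73, limma adjusted p = 0.00396). Esm1, another endothelial activation gene, was at -0.23 (limma adjusted p = 0.638). The ligand gene Angpt4 was at 0.342 ± 0.356 FPKM in the IPF and 0.499 ± 0.0659 FPKM in the sham group (SD, n = 5 each), a log2 difference of -0.70 (limma adjusted p = 0.341). IPF replicate 3 decided this for Angpt4, which was at -1.09 without that sample (limma adjusted p = 0.0163). With a pseudocount of 1 in place of 0.1 the value was -0.19, and 4 of 5 IPF samples lay below the sham range. The 3 most abundant genes of the list, Cldn5, Thbd (-0.05, limma adjusted p = 0.811) and Itgb1 (-0.01, limma adjusted p = 0.969), include the thrombin-binding Thbd and the integrin subunit Itgb1.

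In the apelin pathway, 23 of 25 genes had enough signal to be tested, and 2 passed, both lower (2.14% of all genes tested passed as lower). The growth factor Fgf2 was at 6.73 ± 0.763 FPKM in the IPF and 10.3 ± 1.40 FPKM in the sham group (SD, n = 5 each), a log2 difference of -0.60 (limma adjusted p = 0.00825). Its receptor Fgfr1 was at 9.44 ± 0.543 against 12.8 ± 1.17 FPKM (SD, n = 5 each), a log2 difference of -0.43 (limma adjusted p = 0.00585). In both genes all 5 IPF samples were below all sham samples. Apela, the second peptide ligand of Aplnr, was below the filter, at 0 to 0.120 FPKM in the IPF and 0 to 0.0653 FPKM in the sham samples, so no change of it could be measured. Mme, a peptidase that cleaves apelin, did not pass (0.21, limma adjusted p = 0.0700), but did so in 2 of 21 alternatives, with array weights and without sham replicate 5 (0.24, limma adjusted p = 0.0467). Nor did the arrestins Arrb1 (0.11) and Arrb2 (0.22, limma adjusted p = 0.0980), nor the flow-responsive target Klf2 (-0.15, limma adjusted p = 0.444). With Klf2, the G protein subunit Gnai2 (0.04) and the transcription factor Klf4 (-0.17) were the most abundant genes of the list, and none of these 3 passed.

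**Figure D4:**
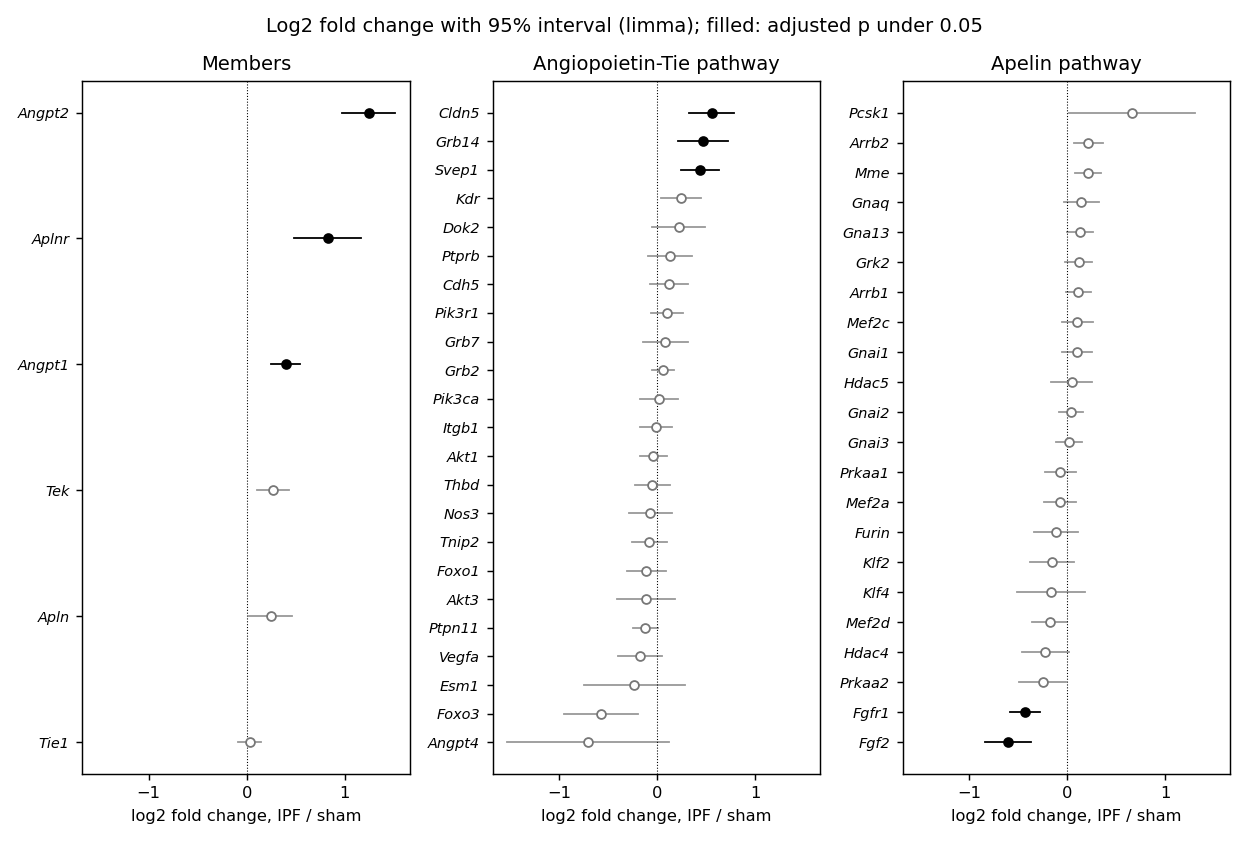
Log2 fold change (IPF over sham) with its 95% interval from limma for the 6 genes and for tested genes of the angiopoietin-Tie and apelin pathways; filled points have an adjusted p under 0.05. Angpt2 (1.24) lies to the right of every other gene shown, and most pathway genes lie near 0.

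Samples of one group also differed from each other. IPF replicate 5 had the highest Tek, Angpt1 and Tie1 of its group (0.21, 0.19 and 0.10 above the group mean on the log2 scale) and the lowest Apln and Aplnr (-0.30 and -0.52). IPF replicate 3 was the reverse for most of them, with Aplnr at 0.39 and Angpt2 at 0.24 above and Angpt1 at -0.17. Over the 10 deviations from the group means, 15 pairs of the 6 genes were compared, and 1 passed: Angpt1 and Tek varied together (Pearson r = 0.862, exact permutation within groups, two-sided p = 0.00181, Benjamini-Hochberg 0.0271 over 15 pairs; Spearman rho = 0.842, exact permutation p = 0.00319, adjusted 0.0479). Without IPF replicates 3 and 5, the samples farthest from the median of Angpt1, r was 0.707, and without sham replicate 1 it was 0.918. Angpt1 and Aplnr went in opposite directions (r = -0.780, exact permutation p = 0.0586, adjusted 0.206; Spearman rho = -0.673, exact permutation p = 0.0991, adjusted 0.583), and this rested on IPF replicates 3 and 5, since r was -0.21 without them. For Angpt1 and Angpt2 no relation was detected (r = -0.02, exact permutation p = 0.951, adjusted 0.951; Spearman rho = 0.103, exact permutation p = 0.781, adjusted 0.837), although r was 0.687 without IPF replicates 3 and 5. Values of one library share its depth and its mix of cells.

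**Figure D5:**
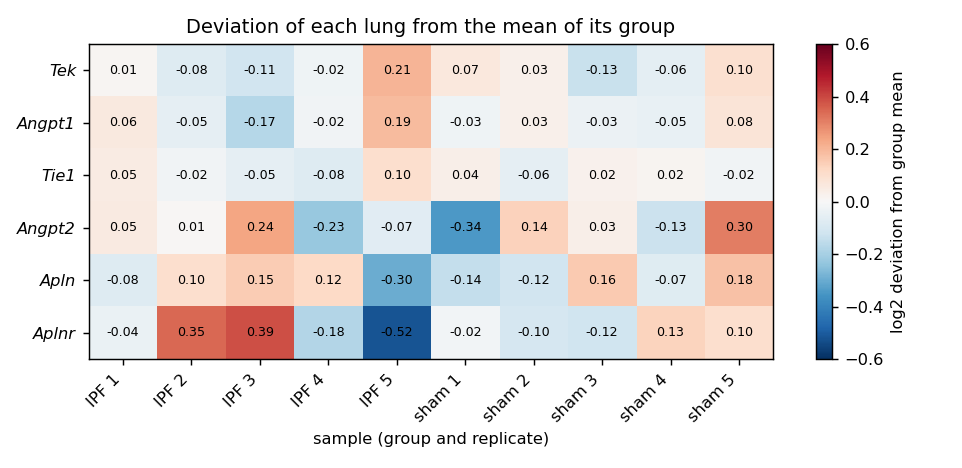
Deviation of log2(FPKM + 0.1) of each gene from the mean of its own group, for the 10 samples; red is above and blue below the group mean, and the value is printed in each cell. IPF replicate 5 is high for Tek, Angpt1 and Tie1 and low for Apln and Aplnr.

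For each of the 6 genes, the 3 genes with the most similar deviations over the 10 samples were found among 13445 genes with a mean of at least 1 FPKM, as a description without a test. Those of Tek were Sp4, Bend7 and Rsbn1l (r from 0.966 to 0.979), and those of Angpt1 were Jrkl, Tiparp and Kctd9 (r from 0.958 to 0.972). For Angpt2 they were A130010J15Rik, Stub1 and Thoc6 (r from 0.922 to 0.943), and for Tie1 Zbtb44, Gpc4 and Gm47468 (r from 0.937 to 0.962). Apln was followed by Blmh, Ccnd1 and Haspin (r from 0.932 to 0.954), and Aplnr by Hemk1 (r = 0.968) and Exoc3l2 (r = 0.949). Of the similar genes named here, 1, Gm47468, passed the test between the groups (log2 fold change -1.03, limma adjusted p = 0.0467), and it did so in 8 of 21 alternatives.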

How the data were processed

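By the study's methods, reads of whole-lung mRNA were trimmed with Fastp and aligned with HISAT2, and genes were quantified with StringTie. The deposited table holds 1 FPKM value per gene and sample. The study's methods name GRCm39, the submitters' processing notes name GRCm38 (and Bowtie 0.12.2), and the gene positions in the deposited table are those of GRCm38. FPKM was multiplied by gene length and divided by the value of 1 read, estimated for each sample from its low values; all values under 1000 reads then came out whole (tolerance 0.01), and these reads give the depth stated. Genes with a mean of at least 0.1 FPKM were tested with limma 3.58.1 (R 4.3.3; linear model with no covariate, empirical Bayes with trend) on log2(FPKM + 0.1), which slightly understates fold changes. Adjustment for multiple tests followed Benjamini and Hochberg. DESeq2, used in the study, was not run here. Single values were compared by exact permutation over samples. Samples were grouped by their titles. The labels do not say how samples relate to litters. The p-values treat the samples as independent and set the difference between groups against the spread within them.

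The 6 genes and the gene lists were chosen with earlier results of these data known. Named are the 6 genes, the genes of the angiopoietin-Tie, apelin and angiopoietin-like lists that passed with the 3 most abundant of each, passing marker genes, the 3 nearest genes by correlation, and Xist, Arntl and Dbp. Others named were chosen after their values were seen. Some genes that the lists and counts include are not reported here by name. A symbol on several rows was read from the row of highest mean. Alternatives were other pseudocounts (1 and 0.01), filters (none, or at least 1 FPKM) and scalings, the replicate block, other variance models, voom on recovered reads, autosomal genes alone, and leaving out each sample.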

Additional observations from a re-analysis of the deposited data

How the results depend on the processing

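The log2 fold changes of Angpt1, Angpt2 and Aplnr kept their direction and an adjusted p under 0.05 from limma in all 21 alternatives. Tek passed with a filter of at least 1 FPKM (0.26), with the replicate block (0.26), with array weights (0.26) and with voom on recovered reads (0.26), and Tie1 had -0.0234 with quantile normalization. Leaving out each sample in turn gave 0.35 to 0.44 for Angpt1, 1.16 to 1.32 for Angpt2, 0.21 to 0.29 for Tek, 0.01 to 0.05 for Tie1, 0.21 to 0.32 for Apln and 0.73 to 0.95 for Aplnr, and 3 to 4 of the 6 genes passed. In the angiopoietin-Tie list 1 gene passed as lower with array weights (1) or voom (1), against 0, and 0 to 1 when samples were left out. In the apelin list 1 passed as higher with array weights, and 0 to 1 when samples were left out. Leaving out samples moved Tek relative to endothelial genes between 0.0807 and 0.16 (log2), past 0.05 only without sham replicate 5 (exact permutation p = 0.0476). The correlation of Angpt2 with Tek turned from -0.111 to 0.0511 without sham replicate 1. The causes were not tested.

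The replicate numbers that the groups share did not pair the samples (correlation of same-numbered deviations -0.02 to 0.10, median of other pairs -0.02). With the numbers as a replicate block, an exact sign-flip test over 5 differences cannot go below p = 0.0625, so the differences in the ratios Angpt2 to Angpt1 (0.85), Apln to Aplnr (-0.58) and Tek to Tie1 (0.23), and in Angpt1 (0.26), Angpt2 (1.11), Tie1 (-0.11) and Aplnr (0.69) relative to endothelial genes, could not pass or did not. Among the limma calls of the 6 genes, the block changed that of Tek and no other.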

Other observations

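The angiopoietin-like genes resemble angiopoietins in sequence but are not known as ligands of Tek. Of 7, 5 were tested, and 1 passed, as lower (2.14% of all genes tested passed as lower). Angptl2, a secreted protein linked to inflammation and matrix, was lower in the IPF group, at 19.2 to 23.4 FPKM against 28.8 to 35.4 FPKM in the sham group, with all 5 IPF samples below all sham samples (log2 fold change -0.61, standard error 0.07, limma adjusted p = 0.00115), the opposite direction to Angpt1 and Angpt2. Angptl4, an inhibitor of lipoprotein lipase, was at 9.59 ± 6.55 FPKM in the IPF and 19.3 ± 3.61 FPKM in the sham group (SD, n = 5 each), a log2 difference of -1.18 (limma adjusted p = 0.0523), with 4 of 5 IPF samples below all sham samples, and it passed in 5 of 21 alternatives: a filter of at least 1 FPKM, quantile normalization, array weights, voom, and the fit without IPF replicate 5 (-1.51, limma adjusted p = 0.000351). Angptl7, the third most abundant of the list, was at 1.83 ± 0.435 FPKM against 2.50 ± 1.21 FPKM (SD, n = 5 each), which did not pass (limma adjusted p = 0.608).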
